A study of Mus musculus with 36 samples.

Results

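Nr4a1, Per1 and Fosl2 encode transcription regulators whose genes are switched on within the first hours after neurons are stimulated. They were followed here through 3 of the 27288 rows of a table of RNA-seq counts from mouse cortical neurons. The rows are ENSMUSG00000063971, ENSMUSG00000020894 and ENSMUSG00000029136, which the annotation calls Krt88, Vamp2 and Rbks. Values in the table appear to stand 1 place away from their identifiers when transcripts are sorted by identifier, so the rows were read as Nr4a1, Per1 and Fosl2. These names are an inference from identifier order and not names in the file. The rows were selected on their higher values in HCA than in untreated libraries of these same data, so that comparison is given as a description without a test. All 3 were among the 25588 rows that passed the filter on low counts.

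Total RNA came from primary cortical cultures of outbred CD1 mouse embryos at day 15, plated for 24 h and treated for 6 h. HCA, homocysteic acid, resembles glutamate, competes with cystine for entry into cells and so lowers glutathione, and it was given at 5 mM. Sodium selenite, a source of selenium, was given at 0.1 or 1, doses written without a unit because the sample labels give them in mM and the series text in micromolar. The series text also calls HCA a ferroptosis inhibitor. The 6 groups were untreated control, selenite 0.1, selenite 1, HCA, HCA with selenite 0.1 and HCA with selenite 1. Each group held 6 libraries, 1 from each of 6 labelled culture batches, and each batch held 1 library of every group. How many embryos a batch pooled is not stated in the labels. All groups shared the strain, age, plating and time of collection. Control batches 5 and 6 and selenite 0.1 batch 5 had the lowest library sizes after TMM scaling, 3.51, 5.40 and 1.34 M counts against at least 9.79 M in the other 33 libraries, and each comparison of HCA within selenite is also given without them.

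Genes of this kind need no new protein to be transcribed. Calcium entering through glutamate receptors and voltage-gated channels activates kinases that phosphorylate factors such as CREB, which binds the cyclic AMP response element (CRE), and SRF and MEF2, which bind elements of their own. Nr4a1 (also called Nur77) is an orphan nuclear receptor that binds DNA without a known ligand, Per1 is a repressor of the circadian clock that light and neuronal activity induce through CRE sites, and Fosl2 (Fra-2) is a Fos-family partner of Jun proteins in the AP-1 complex.

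On GRCm38, GENCODE vM21 places Nr4a1 on chromosome 15 from 101254269 to 101274795, Per1 on chromosome 11 from 69095217 to 69109960 and Fosl2 on chromosome 5 from 32135801 to 32157842, all on the plus strand. By the inferred shift the row read as Nr4a1 held the coding transcript Nr4a1-201 alone. The row read as Per1 held the coding transcript Per1-201 with 4 non-coding transcripts of other genes, and the row read as Fosl2 held Fosl2-201 with 2 such transcripts. The stretches just upstream of the start sites are shown because CREB, SRF and MEF2 act on such stretches and because the 3 rows were high in the same libraries. They are RefSeq promoter entries on GRCm38.p6, plus strand, ended before the first annotated exon base. Capitals mark motif matches.
Nr4a1, chr15:101266596-101266845: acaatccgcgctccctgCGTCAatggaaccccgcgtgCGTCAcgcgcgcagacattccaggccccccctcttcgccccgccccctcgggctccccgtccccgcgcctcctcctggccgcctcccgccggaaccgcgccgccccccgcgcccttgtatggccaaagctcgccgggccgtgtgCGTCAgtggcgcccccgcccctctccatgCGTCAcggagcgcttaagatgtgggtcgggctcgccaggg
Per1, upstream start of 2, chr11:69098699-69098947: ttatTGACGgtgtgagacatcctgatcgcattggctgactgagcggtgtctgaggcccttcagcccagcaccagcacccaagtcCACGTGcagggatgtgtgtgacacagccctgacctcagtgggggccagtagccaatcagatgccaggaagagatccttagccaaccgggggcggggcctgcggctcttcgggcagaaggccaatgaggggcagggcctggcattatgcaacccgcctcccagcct
Per1, downstream start of 2, chr11:69099902-69100151: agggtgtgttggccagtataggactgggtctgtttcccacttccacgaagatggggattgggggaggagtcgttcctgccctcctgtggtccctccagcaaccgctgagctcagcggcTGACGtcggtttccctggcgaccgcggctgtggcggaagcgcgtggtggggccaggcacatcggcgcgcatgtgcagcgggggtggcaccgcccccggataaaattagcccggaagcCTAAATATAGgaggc

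Both strands were searched for the full CRE TGACGTCA, its core TGACG, which reads CGTCA when it lies on the other strand, the AP-1 site TGANTCA, the E-box CACGTG bound by clock factors, the CArG box of SRF and the MEF2 site. The full CRE contains the core on both strands. The Nr4a1 stretch held 4 CRE cores, beginning 233, 213, 69 and 40 bases before the RefSeq start. Of 32851 RefSeq stretches of 250 bases, 17.8% held at least 1 CRE core and 0.137% held 4 or more. The cut of 4 was the number seen in Nr4a1. These stretches were not matched for base composition, and the Nr4a1 stretch was 74.4% G and C. The upstream Per1 stretch held 1 CRE core and 1 E-box, a motif found in 6.02% of stretches. The downstream one held 1 CRE core and 1 MEF2 site, found in 0.508%. Only the upstream stretch lies before Per1-201, the coding transcript of the row read as Per1, which GENCODE starts at 69098948. The downstream stretch precedes a RefSeq start at 69100152 and lies past the start of Per1-201. None of the 3 stretches held the full CRE (1.55% of stretches), the AP-1 site (6.75%) or the CArG box (1.47%). The RefSeq stretch of Fosl2 lies inside the first exon of Fosl2-201 and is not shown. These are matches of letters and were not measured as bound sites.

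The libraries of Nr4a1 fell into 2 ranges that did not touch. Levels are CPM (counts scaled to the size of the library, with TMM factors), given as lowest, median and highest of the 6 libraries. Without HCA they were 0.291, 0.891 and 1.12 in control, 0.395, 0.733 and 1.39 in selenite 0.1, and 0.396, 0.846 and 1.10 in selenite 1. With HCA they were 3.59, 5.88 and 15.7, with HCA and selenite 0.1 they were 3.22, 5.44 and 14.5, and with HCA and selenite 1 they were 2.46, 4.27 and 14.1. All 18 libraries with HCA lay above all 18 without it, the nearest being 2.46 and 1.39 CPM. Of all rows tested, 28 (0.109%) showed this separation, and the choice of members on HCA against control bears on it in part.

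Group means of Nr4a1 ran from 0.763 ± 0.298 CPM (SD, n = 6) in selenite 1 through 0.770 ± 0.369 in selenite 0.1 and 0.836 ± 0.292 in control to 6.19 ± 4.56 in HCA with selenite 1, 6.82 ± 4.26 in HCA with selenite 0.1 and 7.54 ± 4.47 in HCA. Neighbours in this order overlapped in range except control and HCA with selenite 1. The low levels rested on few reads, from 3 to 72 counts in the control libraries and 1 count in selenite 0.1 batch 5, against 71 to 794 counts in HCA. Counting error is therefore larger without HCA. In bulk RNA fewer cells of a type cannot be told apart from less RNA per cell.

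HCA against control, the comparison the rows were chosen by, gave a log2 difference of 3.19 ± 0.49 (SE) for Nr4a1, 2.97 ± 0.61 for Per1 and 1.47 ± 0.33 for Fosl2. Leaving out 1 batch gave Per1 values from 2.72 to 4.28, the highest (4.28 ± 0.77) without batch 3. All 3 were higher in 6 of 6 batches, as were 3.63% of all rows. The ranges of HCA and control did not overlap for any of the 3, as for 0.606% of all rows. Nothing is read from these counts, since the choice fixed them.

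The response to HCA was tested in the libraries given selenite, which the choice did not use but whose results were known when the rows were proposed. In selenite 0.1, Nr4a1 was higher with HCA by 3.24 ± 0.49 (log2, SE), a 9.46-fold difference with a 95% interval from 4.73 to 18.9 (edgeR adjusted p = 2.96e-04, higher in 6 of 6 batches). In selenite 1 it was higher by 3.03 ± 0.46, or 8.16-fold with an interval from 4.28 to 15.6 (edgeR adjusted p = 3.33e-04, 6 of 6 batches). Nr4a1 thus rose in both, where 0.145% and 0.125% of all rows were called higher. Its ranges did not overlap at either dose, as for 0.574% and 0.453% of rows.

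**Figure D1:**
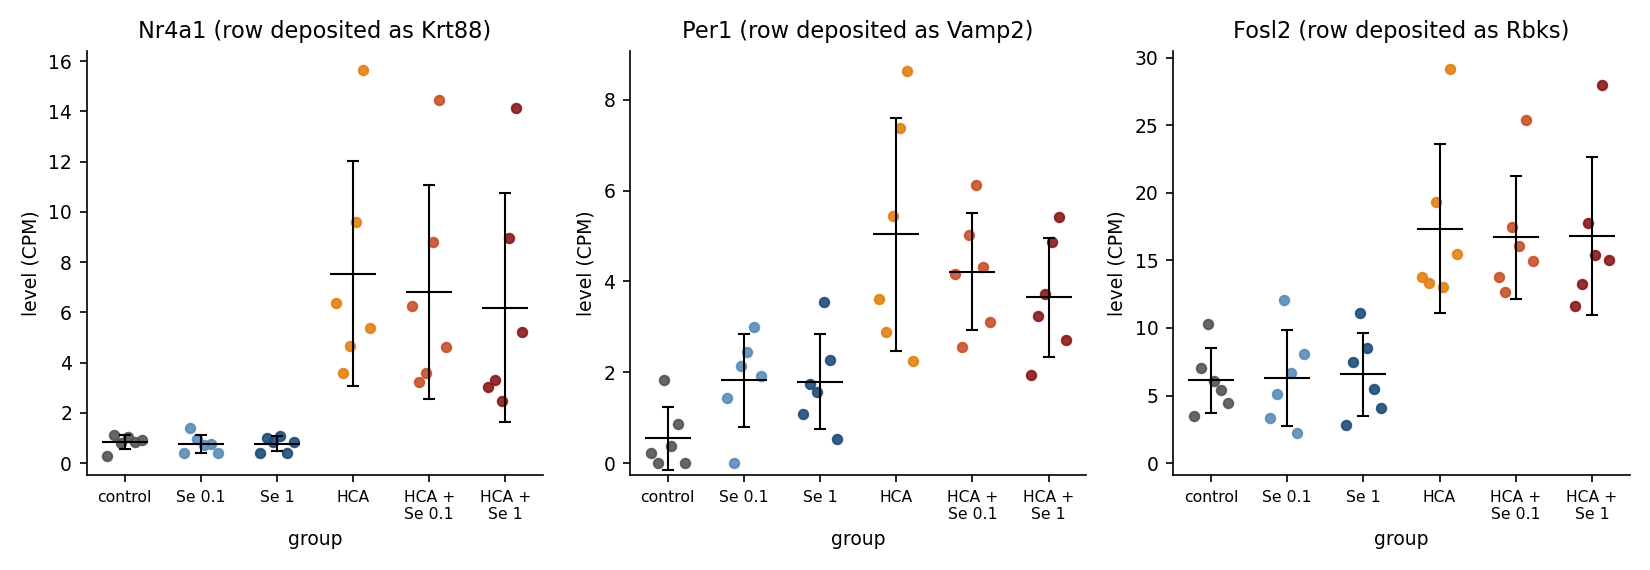
Level in CPM (y axis, linear, a separate scale for each row) of every library by group (x axis) for the rows read as Nr4a1, Per1 and Fosl2, each point 1 library set out from culture batch 1 on the left to 6 on the right, with the mean and SD of 6 libraries in black. Nr4a1 with HCA lies between 2.46 and 15.7 CPM, above every library without HCA, while Per1 without HCA reaches 3.55 CPM and overlaps the libraries with HCA.

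Fosl2 moved by a smaller factor from a higher starting level. Its lowest, median and highest levels were 3.49, 5.74 and 10.3 CPM in control, 2.24, 5.92 and 12.1 in selenite 0.1, and 2.80, 6.48 and 11.1 in selenite 1. With HCA they were 13.0, 14.6 and 29.2, with HCA and selenite 0.1 they were 12.7, 15.5 and 25.4, and with HCA and selenite 1 they were 11.6, 15.2 and 28.0. Only selenite 0.1 batch 3, at 12.1 CPM, reached the lowest library with HCA, at 11.6 CPM. By mean the order was control (6.13 ± 2.39 CPM, SD, n = 6), selenite 0.1 (6.27 ± 3.55), selenite 1 (6.57 ± 3.06), HCA with selenite 0.1 (16.7 ± 4.56), HCA with selenite 1 (16.8 ± 5.85) and HCA (17.3 ± 6.24). Neighbours overlapped in range except selenite 1 and HCA with selenite 0.1.

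Fosl2 with HCA differed by 1.34 ± 0.32 (log2, SE) in selenite 0.1 and 1.35 ± 0.32 in selenite 1, or 2.52-fold (95% interval 1.60 to 3.97) and 2.55-fold (1.63 to 3.98). It was higher in 6 of 6 batches at both doses, as were 3.44% and 2.45% of all rows. Neither difference passed edgeR's test over all rows (adjusted p = 0.103 and 0.0882). With culture batch as a block both passed (edgeR adjusted p = 0.0065 and 0.0039), as they did by DESeq2 (adjusted p = 0.0114 and 0.0053) and limma voom (adjusted p = 0.0378 and 0.0224), and without batch 3 (edgeR adjusted p = 0.0375 and 0.0494). In batch 3 the libraries without HCA had the highest Fosl2 levels of any batch, from 10.3 to 12.1 CPM.

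Per1 showed a different order of groups. Its lowest, median and highest levels were 0, 0.299 and 1.82 CPM in control, 0, 2.03 and 2.99 in selenite 0.1, and 0.526, 1.66 and 3.55 in selenite 1. With HCA they were 2.26, 4.53 and 8.64, with HCA and selenite 0.1 they were 2.55, 4.24 and 6.13, and with HCA and selenite 1 they were 1.93, 3.48 and 5.42. Of the 18 libraries without HCA, 5 lay at or above the lowest with HCA. Control had the lowest mean (0.545 ± 0.700 CPM, SD, n = 6), followed by selenite 1 (1.79 ± 1.05), selenite 0.1 (1.82 ± 1.03), HCA with selenite 1 (3.65 ± 1.31), HCA with selenite 0.1 (4.21 ± 1.29) and HCA (5.04 ± 2.57), and every neighbouring pair overlapped in range.

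The control libraries held few Per1 reads. Their counts were 3, 0, 165, 7, 3 and 0 in batches 1 to 6, so batches 2 and 6 were at 0 and batch 3 held most of the group's reads. Selenite 0.1 batch 2 was at 0 as well. Per1 with HCA differed by 1.28 ± 0.57 (log2, SE) in selenite 0.1 and 1.01 ± 0.54 in selenite 1, or 2.43-fold (95% interval 1.09 to 5.43) and 2.01-fold (0.936 to 4.31). Neither passed (edgeR adjusted p = 0.918 and 1.00), although Per1 was higher with HCA in 6 of 6 batches at both doses. The two-sided exact sign-flip permutation test on within-batch differences gave p = 0.03125 for each of the 3 rows at each dose, the smallest that 6 batches can give.

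Selenite without HCA was compared with control, whose 6 libraries also entered the choice of the rows. That choice favours low control values, and so higher values with selenite. Nr4a1 differed by -0.19 ± 0.51 (log2, SE) at dose 0.1 and -0.12 ± 0.48 at dose 1, with 95% intervals from -1.23 to 0.84 and from -1.10 to 0.86. Fosl2 differed by 0.09 ± 0.33 and 0.08 ± 0.32, with intervals from -0.58 to 0.75 and from -0.57 to 0.73. Per1 differed by 1.43 ± 0.61 and 1.49 ± 0.59, higher in 5 of 6 batches at each dose, with edgeR adjusted p = 1.00 and 0.841 (unadjusted p = 0.0249 and 0.0165). At dose 0.1 the batch that was not higher, batch 2, held 0 Per1 counts in both libraries. Leaving out 1 batch gave Per1 differences from 1.17 to 2.69 at dose 0.1 and from 1.05 to 2.87 at dose 1. The highest came without batch 3, whose control held 165 counts (edgeR adjusted p = 0.417 and 0.234). None of the rows tested was called in either comparison (0.0%) by edgeR, which left 1098 and 1363 rows at an unadjusted p under 0.05, or by limma voom, and DESeq2 called 11 and 19.

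Among libraries with HCA, those with selenite were compared with those without. The HCA libraries without selenite also entered the choice of the rows, by their high values. Nr4a1 differed from HCA alone by -0.14 ± 0.42 (log2, SE) with selenite 0.1 and -0.29 ± 0.42 with selenite 1 (95% intervals -0.99 to 0.71 and -1.14 to 0.56). It was the lower of the pair in 6 of 6 batches at both doses, which share the HCA libraries, and 1.23% and 1.18% of all rows were. The mean within-batch difference of Nr4a1 was -0.17 ± 0.12 (SD, n = 6) and -0.40 ± 0.46. The two-sided exact sign-flip permutation test gave p = 0.03125 at both doses for Nr4a1, the smallest possible, where edgeR without the pairing gave adjusted p of 1.00 at both. The choice of high HCA values favours this direction, so the test cannot decide whether selenite lowered Nr4a1. Per1 differed by -0.25 ± 0.54 and -0.47 ± 0.54, and was lower in 4 of 6 batches at each dose. Fosl2 differed by -0.05 ± 0.31 and -0.04 ± 0.31, with intervals from -0.68 to 0.58 and from -0.67 to 0.59. No row was called in either comparison by edgeR or voom (0.0%), while 258 and 207 rows had an unadjusted p under 0.05 and DESeq2 called 2 and 3.

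**Figure D2:**
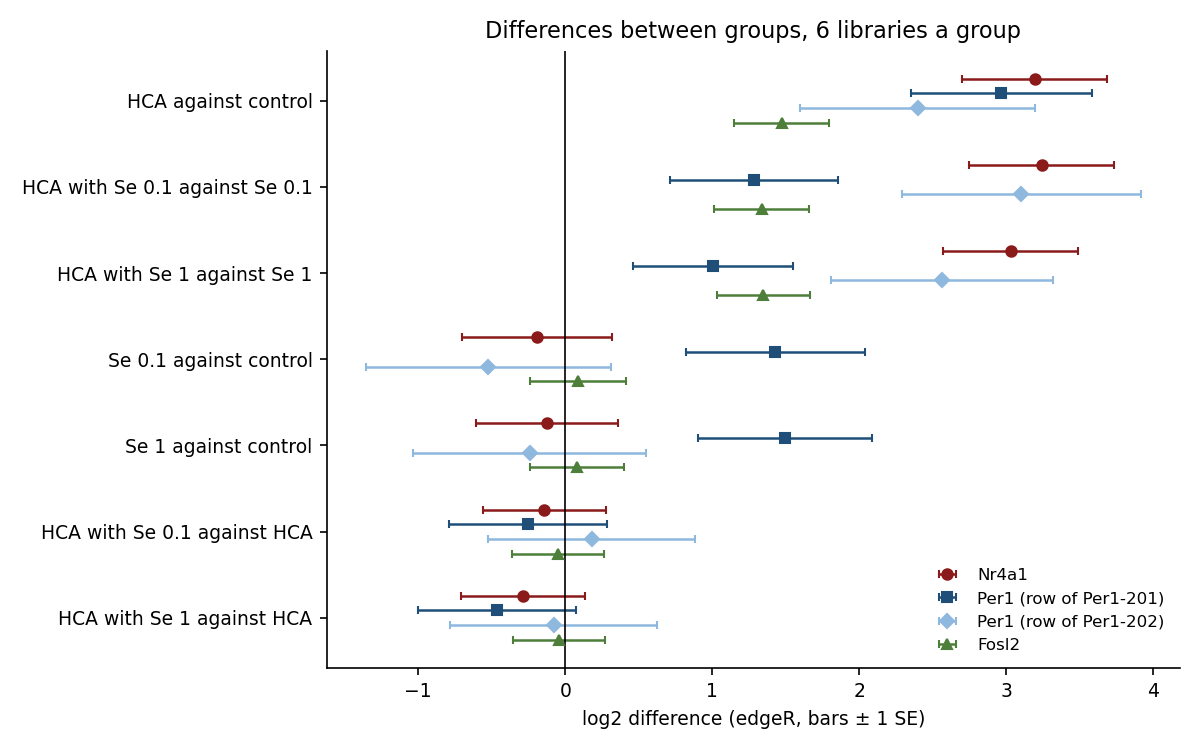
Log2 differences from edgeR (x axis, points with bars of 1 SE) for 7 comparisons between groups of 6 libraries (y axis), for Nr4a1, for both rows that hold Per1 transcripts alone among coding genes, and for Fosl2. The row of Per1-201 lies to the right of 0 for selenite against control, at 1.43 and 1.49, where the row of Per1-202 lies at -0.52 and -0.24.

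The difference between the response to HCA with selenite and without it was 0.05 ± 0.65 (log2, SE) at dose 0.1 and -0.16 ± 0.64 at dose 1 for Nr4a1, and -0.14 ± 0.45 and -0.12 ± 0.45 for Fosl2. For Per1 it was -1.68 ± 0.81 and -1.96 ± 0.80, with edgeR adjusted p of 1.00 at both. It was negative in 6 of 6 batches at each dose, as for 1.67% and 2.5% of all rows, and the two-sided exact sign-flip permutation test within batches gave p = 0.03125 at both, the smallest possible. Leaving out 1 batch gave Per1 values from -2.97 to -1.42 at dose 0.1 and from -3.32 to -1.50 at dose 1. The lowest, -2.97 ± 0.97 and -3.32 ± 0.95, came without batch 3 (edgeR adjusted p = 1.00 and 0.729). One side of this difference is the comparison the rows were chosen by. A choice of rows high in HCA against control favours a negative value, so the test cannot decide whether selenite changed the Per1 response. No row was called by edgeR or voom at either dose (0.0%), 629 and 594 rows had an unadjusted p under 0.05, and DESeq2 called 4 and 8.

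A second row, deposited as 9330160F10Rik, held Per1-202 and no other transcript. Per1-202 is not placed here against the start sites shown above, since its own start is not given. Its means were 0.400 ± 0.483 CPM (SD, n = 6) in control, 0.260 ± 0.159 in selenite 0.1 and 0.370 ± 0.140 in selenite 1, against 2.31 ± 1.64, 2.62 ± 2.09 and 2.21 ± 1.65 with HCA in the same order. With HCA it differed by 2.40 ± 0.80 (log2, SE), 3.10 ± 0.81 and 2.56 ± 0.76, none of which passed by edgeR (adjusted p = 0.341, 0.182 and 0.441). DESeq2 called it in selenite 0.1 (adjusted p = 0.0099) and not at the other levels (adjusted p = 0.117 in HCA against control and 0.0547 in selenite 1). Selenite against control gave -0.52 ± 0.83 and -0.24 ± 0.79, where the row of Per1-201 gave 1.43 and 1.49. The difference between the 2 rows was not tested. Its range in HCA began at 0 CPM, in 1 library.

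The remaining transcripts gave no clean second reading. Nr4a1-202, Nr4a1-203 and Nr4a1-204 had no row in the table used here. The other rows with Per1 or Fosl2 transcripts each held transcripts of 2 or more coding genes. The row with Fosl2-202 also held coding transcripts of Gm43638, Lat2 and Rgs6 and averaged 0.489 CPM in HCA. It differed by 1.52, 1.71 and 1.05 (log2) with HCA at the 3 selenite levels. It was not called by edgeR, while DESeq2 called it in selenite 0.1 (adjusted p = 0.0460). The other mixed rows, not called by edgeR, showed no such rise. They differed by 0.13, -0.03 and 0.12 (Fosl2-203), 0.21, -0.18 and 0.34 (Per1-203), -0.04, 0.23 and 0.05 (Per1-204), -0.76, -0.44 and 0.07 (Per1-205), and -0.27, -0.004 and -0.04 (Per1-206). The rows deposited under the 3 genes' own names moved less than the rows read as those genes. With HCA, the row deposited as Nr4a1 differed by 0.13, -0.19 and -0.01, the row deposited as Per1 by -0.08, 0.06 and -0.21, and the row deposited as Fosl2 by 0.12, 0.41 and 0.26, and edgeR called none of them.

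The HCA libraries differed by culture batch. Batch 5 held the highest Nr4a1 levels in all 3 HCA groups, from 14.1 to 15.7 CPM, and batch 4 the next, from 8.79 to 9.60. In batches 2 and 3 the 6 libraries with HCA lay between 2.46 and 4.66 CPM. Batch 5 was also highest for Fosl2, from 25.4 to 29.2 CPM against at most 19.3 elsewhere. For Per1 the 3 HCA libraries of batch 5 spread from 4.32 to 8.64 CPM and those of batch 4 from 4.88 to 7.38. Without HCA batch 5 was not high for Nr4a1 (0.396 to 0.855 CPM) or Fosl2 (2.24 to 5.50 CPM).

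**Figure D3:**
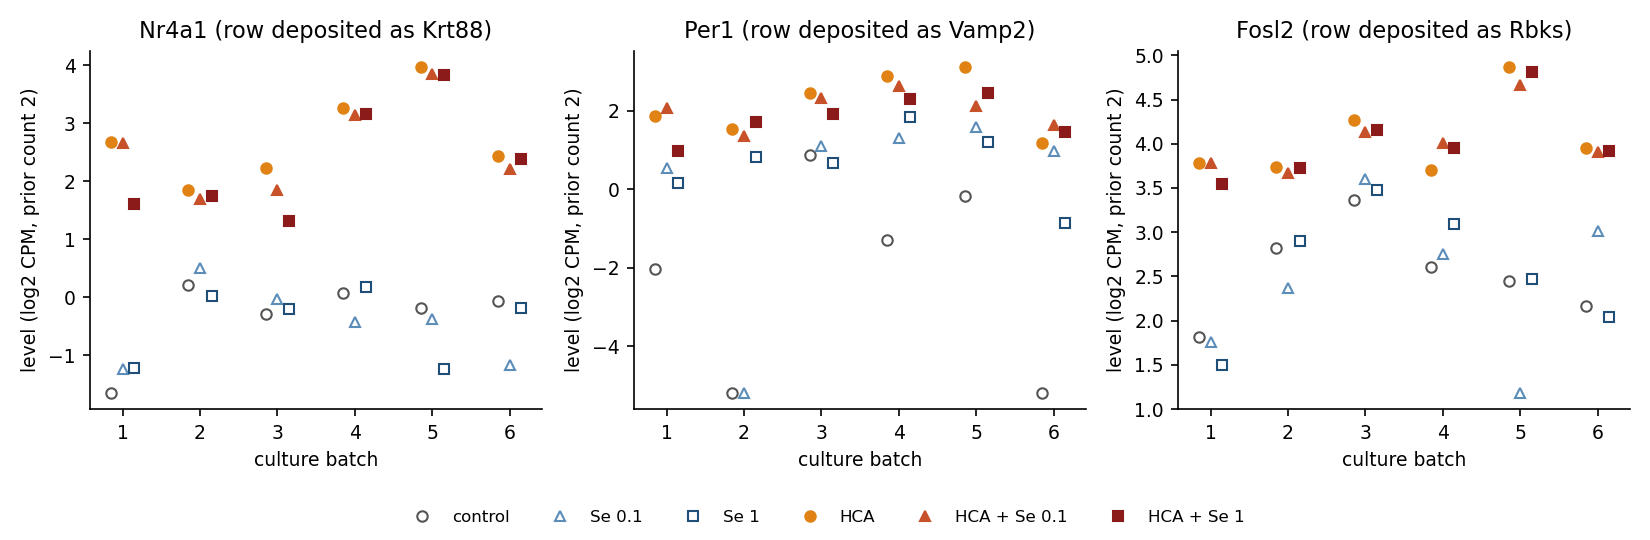
Level (y axis, log2 CPM with a prior count of 2, a separate scale for each row) by culture batch (x axis), with open symbols for the 3 groups without HCA and filled symbols for the 3 with HCA. Within each batch the filled symbols of Nr4a1 and Fosl2 lie above the open ones, and the HCA libraries of batch 5 are the highest for both. The lowest open symbols of Per1 in batches 2 and 6 are libraries at 0 counts.

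Over the 18 HCA libraries, with each group's mean subtracted, Pearson's r of log2 CPM was 0.66 between Nr4a1 and Per1 (permutation p = 0.0037, adjusted 0.0112), 0.67 between Nr4a1 and Fosl2 (p = 0.0025, adjusted 0.0112) and 0.60 between Per1 and Fosl2 (p = 0.0083, adjusted 0.0165). Spearman's rho was 0.60, 0.50 and 0.61 (permutation p = 0.0105, 0.0353 and 0.0082, adjusted 0.0316, 0.0706 and 0.0316). The 3 libraries of a batch share a culture, so these 18 are not independent. With batch means subtracted as well, r was 0.57, 0.57 and 0.43 (permutation p = 0.0140, 0.0131 and 0.0765, adjusted 0.0287, 0.0287 and 0.0983). The permutation treated the 18 values as free, although subtracting means ties them together, so these p-values are too small. The pair of Per1 and Fosl2 no longer passed, and no pass is read for the other pairs. Spearman's rho was then 0.37, 0.58 and 0.39, and no pair passed by it (permutation p = 0.130, 0.0130 and 0.112, adjusted 0.156, 0.0778 and 0.156). Without the 2 libraries farthest from the median, r was 0.67, 0.43 and 0.58 before batch subtraction and 0.32, 0.38 and 0.14 after it, so the within-batch relations rest on those libraries. Over the 18 libraries without HCA r was -0.32, 0.42 and 0.20, and none of these passed adjustment over the 6 relations (permutation p = 0.199, 0.0851 and 0.425, adjusted 0.238, 0.128 and 0.425). With batch means subtracted, r between Nr4a1 and Fosl2 without HCA turned to -0.56 (permutation p = 0.0144, adjusted 0.0287), and to -0.28 without the 2 libraries farthest from the median. That p-value is too small in the same way. Spearman's rho for that pair was -0.45 and did not pass (permutation p = 0.0610, adjusted 0.156).

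The activity-induced genes around the 3 members were read from a list of 59, of which 25 had a row of their own coding transcripts. Leaving the members aside, 1 of 22 passed in HCA against control (Nfil3), 1 of 22 in selenite 0.1 (Nfil3) and 2 of 22 in selenite 1 (Nfil3 and Scg2), and 0 fell, against 0.199%, 0.145% and 0.125% of all rows called higher. The median log2 difference of the 22 was 0.36, 0.40 and 0.41, beside 0.08, 0.03 and -0.02 over all rows. Fosb, another Fos-family gene, was at 0 counts in all 6 control libraries and in 2 of 6 HCA libraries (mean in HCA 0.881 ± 1.32 CPM, SD, n = 6). It was not called at any selenite level (edgeR adjusted p = 0.146, 0.283 and 0.354). Setting it at a bound of at least 31.9-fold higher in HCA, from pooled counts with 3 counts over the control group, left the median at 0.36. This bound carries no measure of the spread between cultures.

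Nfil3, a basic leucine zipper repressor that also belongs to the clock (deposited as C330011M18Rik), rose by 0.97 ± 0.16, 0.97 ± 0.16 and 0.85 ± 0.16 (edgeR adjusted p = 0.0015, 0.0016 and 0.0078), from 16.1 ± 2.55 CPM in control to 31.7 ± 5.85 in HCA. Scg2, a secretory granule protein and precursor of secretoneurin (deposited as Gm29320), differed by 2.16 ± 0.56, 1.92 ± 0.57 and 2.57 ± 0.55 and passed at selenite 1 but not at the other levels (edgeR adjusted p = 0.121, 0.352 and 0.0319). Not every gene of the list had such differences. Arc, an activity-regulated cytoskeletal gene, differed by -0.20 ± 0.62, -0.03 ± 0.61 and -0.09 ± 0.59, and Egr2, a zinc-finger factor, by 0.22 ± 0.26, 0.30 ± 0.26 and 0.12 ± 0.26. Bdnf, a neurotrophin, was read from a row of 0.229 ± 0.211 CPM (SD, n = 6) in HCA and was not called by edgeR (adjusted p = 0.736, 0.0694 and 0.0549). With culture batch as a block it passed at selenite 1 (edgeR adjusted p = 0.0226), as by limma voom (adjusted p = 0.0135), and DESeq2 called it at selenite 0.1 (adjusted p = 0.0267).

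**Figure D4:**
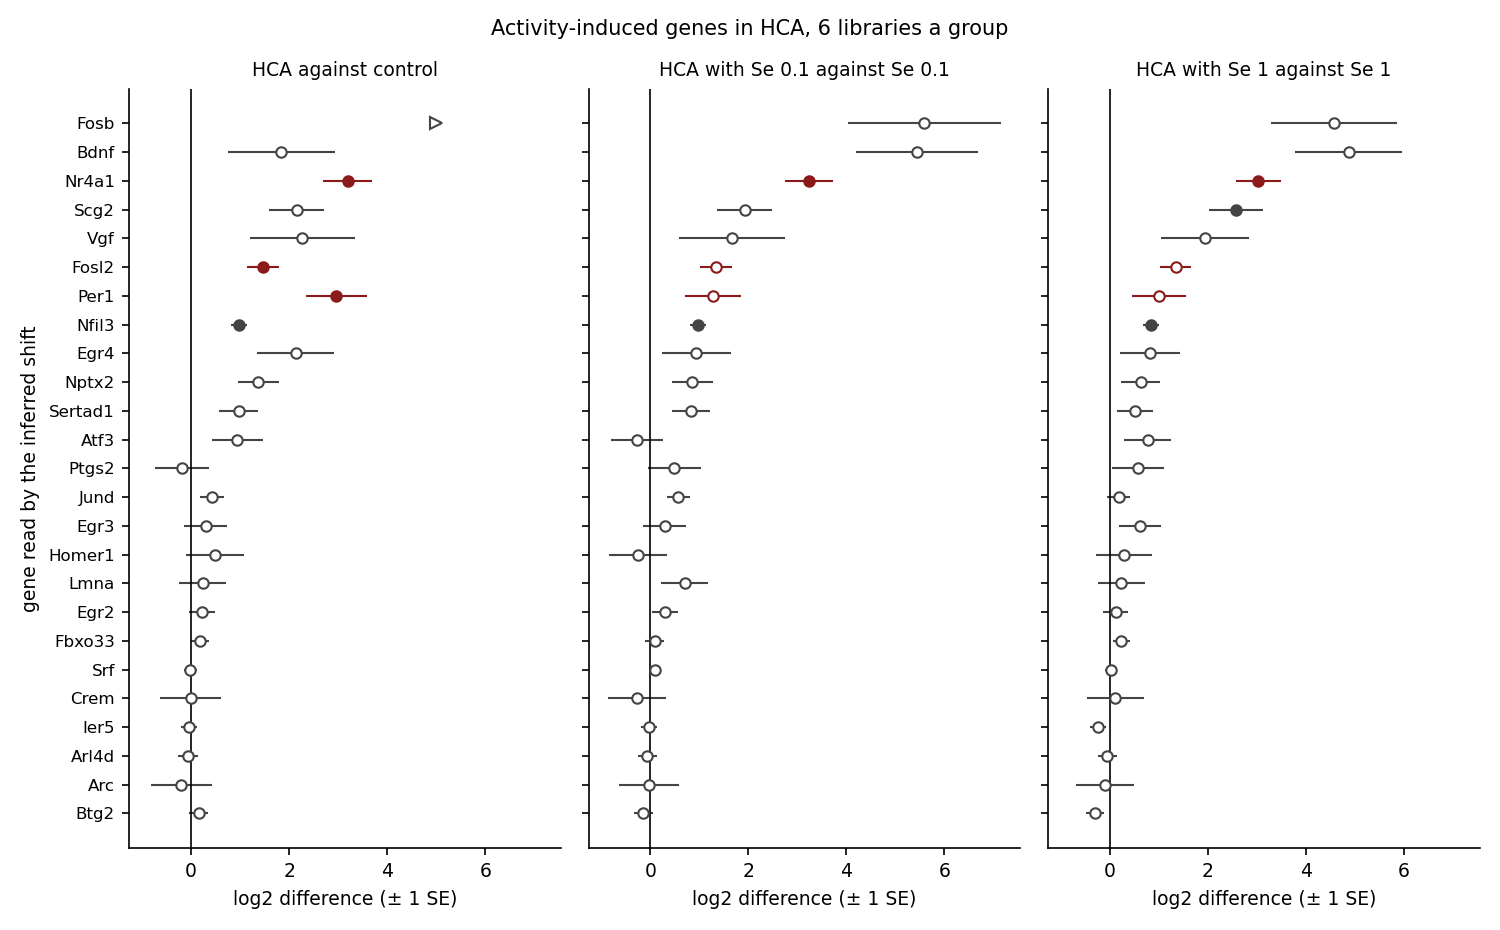
Log2 difference with HCA (x axis, bars of 1 SE) for the 25 activity-induced genes with a readable row (y axis), at the 3 selenite levels, with the 3 members in red. Filled points passed edgeR's adjusted threshold of 0.05, those of the members in the left panel being fixed by their choice. The open triangle is the lower bound from pooled counts for Fosb, whose control libraries were all at 0. Nr4a1 and Nfil3 are filled in all 3 panels.

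Relatives of the members could be read in part. Neither Nr4a2 nor Nr4a3, nor Per2 or Per3, had a row of its own coding transcripts. Of 14 AP-1 subunits 5 could be read, and apart from Fosl2 0 of 4 passed at any selenite level. Jdp2, an AP-1 repressor, differed by 1.66 ± 0.57, 0.62 ± 0.55 and 1.19 ± 0.54, and Jund by 0.43 ± 0.24, 0.57 ± 0.24 and 0.19 ± 0.24. Of 21 clock genes 9 could be read, and apart from Per1 1 of 8 passed, Nfil3, at each level. Dbp, an output gene of the clock, differed by -0.10 ± 0.28, -0.04 ± 0.28 and -0.23 ± 0.27. Of 28 genes that act upstream (CREB and its coactivators, SRF, MEF2 factors, kinases, glutamate receptors and a calcium channel) 17 could be read and 0 passed, with medians of -0.01, -0.04 and -0.05. Srf differed by -0.01 ± 0.12, 0.09 ± 0.12 and 0.02 ± 0.12.

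The rows most like each member, among rows holding transcripts of 1 coding gene and with 1 row per gene, were ranked by Pearson's r of log2 CPM over all 36 libraries with batch means subtracted, a measure that the shared HCA groups enter. For Nr4a1 they included Nfil3 (r = 0.92), Ccdc184 (0.92), Fosl2 (0.91), the cysteinyl-tRNA synthetase Cars (0.87) and Slc3a2, the heavy chain of amino acid transporters (0.86). For Fosl2 they were Hsd17b12 (0.93), Dusp8 (0.92), Nr4a1 (0.91), Slc3a2 (0.90), Nfil3 (0.90) and Gmeb2 (0.89). Among all 25587 other rows, those holding several coding genes or none included, Fosl2 stood 8th from Nr4a1 and Nr4a1 5th from Fosl2. Per1 was less like both, with r of 0.54 to Nr4a1 and 0.61 to Fosl2 and ranked 550th from Nr4a1 and 1087th from Fosl2. Control batches 2 and 6 and selenite 0.1 batch 2 held 0 counts of Per1 and lay at -5.18 log2 CPM. How far these libraries set the r and ranks of Per1 was not tested. Over the HCA libraries, with group and batch means subtracted, r was 0.57 to Nr4a1 and 0.43 to Fosl2. The nearest rows to Per1 over all 36 libraries were 4931406B18Rik (0.88), Il11 (0.81) and Fam189a1 (0.81), of which Il11 had 0.0166 CPM on average in control.

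Depth and library makeup differed between the groups. Estimated counts per library ran from 34.3 to 56.9 M, and rows holding ribosomal RNA took 76.2% ± 15.2 (SD, n = 6) in control, 58.5% ± 29.6 in selenite 0.1, 37.4% ± 30.4 in selenite 1, and 45.7% ± 30.0, 55.8% ± 21.1 and 33.4% ± 27.4 with HCA in the same order, leaving 4.95 to 52.6 M other counts. After TMM factors the library sizes behind CPM ran from 1.34 M (selenite 0.1 batch 5) to 224 M (HCA with selenite 1 batch 6). With the ribosomal RNA rows left out before scaling, every call of the 3 rows stood. Without control batches 5 and 6 and selenite 0.1 batch 5, Nr4a1 differed with HCA by 3.26 ± 0.53 in selenite 0.1 and 3.03 ± 0.48 in selenite 1 (edgeR adjusted p = 0.0011 and 6.42e-04), Fosl2 by 1.24 ± 0.33 and 1.35 ± 0.31 (edgeR adjusted p = 0.179 and 0.0626), and Per1 by 1.36 ± 0.57 and 1.00 ± 0.53 (edgeR adjusted p = 0.794 and 1.00). Of 14 neuronal markers 7 could be read, and their summed level was 706 to 929 CPM in control and 839 to 1254 in HCA. Tubb3 made up most of this sum, at a median of 864 CPM beside 34.3 for Dcx, the next. Slc1a3 (20.9 CPM) led the astrocyte markers and Nes (28.2 CPM) the progenitor ones. The summed level of 4 of 8 astrocyte markers was 26.9 to 44.3 CPM in control and 13.7 to 33.5 in HCA, that of 3 of 6 progenitor markers 49.4 to 88.1 and 32.4 to 45.1, and that of 2 of 6 microglial markers 2.45 to 3.99 and 1.25 to 3.41. In selenite 0.1 without and with HCA the sums were 25.9 to 54.3 and 13.2 to 40.6 CPM for astrocyte markers and 38.1 to 85.8 and 32.7 to 40.8 for progenitor markers. In selenite 1 they were 35.1 to 49.1 and 14.4 to 38.8 for astrocyte markers and 60.4 to 93.5 and 35.4 to 44.0 for progenitor markers. The median log2 difference with HCA at the 3 selenite levels was -0.54, -0.56 and -0.70 for astrocyte markers and -0.61, -0.54 and -0.80 for progenitor markers, beside 0.31, 0.25 and 0.10 for neuronal ones. It was -0.44, -0.10 and -0.08 for microglial markers and -0.45, -0.15 and -0.17 for 4 of 6 oligodendrocyte lineage markers. For the 1 endothelial marker read, Pecam1, it was -0.56, -0.50 and -0.13. No marker was called with HCA by edgeR. The part of these differences in the results was not tested.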

How the data were processed

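RNA of 36 libraries was sequenced after ribosomal RNA depletion with Ribo-Zero Gold from 500 ng of RNA purified with the miRNeasy kit, per the labels' protocols. The deposited table holds estimated counts per Ensembl gene identifier made by the authors, although its name speaks of TPM: columns sum to 34.3 to 56.9 M rather than to 1 shared total, and most entries are fractional in at least some libraries (7.97% to 58.8% whole at a tolerance of 1e-06). STAR, Salmon and GRCm38 are named in the submitters' processing notes. Versions, annotation release and the filter that the file name mentions are not given in the sources used here.

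Estimated counts were rounded and fitted over all 36 libraries and all rows past filterByExpr with edgeR 4.0.16 (TMM, quasi-likelihood, R 4.3.3), with p adjusted by Benjamini-Hochberg over 25588 rows and a threshold of 0.05. Alternatives used DESeq2 1.42.0, limma voom 3.58.1, DESeq2 size factors, no filter, the compared groups alone, no ribosomal RNA rows, no 3 distant libraries, each batch left out, and culture batch as a block. Batch numbers pair libraries because the labels name a culture batch for each. Sign-flip and permutation tests were two-sided, the latter with 100000 resamples.

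Names rest on GENCODE vM21 with transcripts sorted by identifier and shifted by 1. Of the identifiers, 27094 of 27288 occur there. A gene was read from the row of highest mean count holding its coding transcripts and those of no other gene. Text names the 3 members, list genes past the threshold with contrasting ones chosen after their values were seen (Arc, Egr2, Fosb, Bdnf, Jdp2, Jund, Dbp, Srf, and Per1 and Fosl2 transcripts), and rows among the 6 most like each member. One gene of the activity list is not reported here and is left out of the list's counts and medians. Members and lists were chosen with earlier results of these data known. Whether embryos were shared between wells of a batch is not stated, so p-values measure the spread between these cultures.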

Additional observations from a re-analysis of the deposited data

Results flagged for a closer look

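For Per1, the within-batch log2 CPM difference between HCA with selenite 0.1 and selenite 0.1 was 6.55 in batch 2, far above the next highest batch at 1.51, the gap being 0.836 of the range of the 6 batches. The selenite 0.1 library of that batch held 0 counts of the row, so the size of the difference depends on the prior count of 2. Of 36 groups of 6 values examined this way 1 stood out, and about 1 in 20 would by chance.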

How the results depend on the processing

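Culture batches pair the libraries by label. With the replicate block Fosl2 passed with HCA in selenite 0.1 (1.35) and selenite 1 (1.39), and the Nr4a1 difference in response at dose 0.1 became -0.046, near 0 in both fits. The block changed no other call of the 3 rows, and raised the rows called with HCA in selenite 1 from 39 to 61. Fosl2 also passed with DESeq2 (1.31 and 1.34) and limma voom (1.43 and 1.28). By voom, values near 0 changed sign without any call: with selenite 0.1 against HCA, Nr4a1 0.025, Per1 0.015 and Fosl2 0.077, Fosl2 with selenite against control -0.14 and -0.10, and its differences in response 0.22 and 0.072. Without the 3 distant libraries Fosl2 in selenite 1 against control was -0.037, and 62 rows rather than 41 were called with HCA in selenite 0.1. Leaving out 1 batch gave these ranges. Fosl2 with HCA ran from 1.08 to 1.61 in selenite 0.1 and 1.09 to 1.55 in selenite 1, passing without batch 3 alone. Fosl2 ran from -0.056 to 0.18 and -0.038 to 0.11 for selenite against control, -0.11 to 0.0049 for selenite 0.1 within HCA and -0.23 to 0.0066 for the difference in response at dose 0.1. Nr4a1 ran from -0.21 to 0.023 for selenite 1 against control and -0.13 to 0.22 for the difference in response at dose 0.1. Per1 with HCA ran from 1.13 to 1.40 in selenite 0.1 and 0.91 to 1.22 in selenite 1. Nr4a1 kept its call with HCA in both selenite doses under all 14 alternatives (adjusted p at most 0.0140 and 0.0305), and Per1 had none under any of these. Rows called with HCA at the 3 selenite levels numbered 58, 41 and 39, by DESeq2 175, 154 and 120, by voom 35, 67 and 98, and with the compared groups alone 22, 23 and 22. Without 1 batch they were 27 to 68, 23 to 40 and 21 to 42, with 0 to 5 and 0 to 11 called for selenite against control. CPM without TMM moved 11 of 18 group means, Nr4a1 to 0.421 (control), 1.58 (selenite 1) and 13.4 (HCA with selenite 1), Per1 to 4.29 (selenite 1), 7.65, 6.30 and 7.72 (the HCA groups), and Fosl2 to 16.1 (selenite 1), 26.7, 24.1 and 36.8. With batch means subtracted, r was 0.43 for Per1 and Fosl2 with HCA and -0.56 for Nr4a1 and Fosl2 without HCA (permutation adjusted p = 0.0983 and 0.0287, too small for the reason given above). The causes were not tested. Few reads limit Nr4a1 and Per1 in control.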
